A study of Mus musculus with 12 samples.

Results

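The genes described here are 39 interferon-stimulated and antigen presentation genes, taken as a list by function and matched by symbol to the Ensembl gene IDs of 12 RNA-seq libraries. The list was chosen with earlier results of these data known. Counts of members beside the shares of all genes therefore describe it and are no test of it. The libraries counted reads for 37583 IDs, of which 24360 had any count and 14904 were tested. Of the 39 members, 37 were tested. Mx1 was removed by the filter on low counts, which took out genes with 0 counts in 2 or more libraries, and Psmb9 had 0 counts in every library. The cells were a single-cell subclone of Ocy454, a mouse osteocyte line from long bone. The line was immortalised with a temperature-sensitive T antigen that is switched off when the cells are moved to a warmer incubator. Control cells are labelled as the original cells, and DKO cells as carrying HDAC4 and HDAC5 deletion, both class IIa histone deacetylases. Cells of both kinds were kept static (at rest) or subjected to 3 h of fluid flow shear stress (FFSS), applied by agitating the plates on an orbital platform, with 3 replicates in each of the 4 groups. The DKO cells are a line of their own, and an effect of genotype cannot be told apart from one of the line. Gene coordinates are those of the mm9 assembly with its Ensembl annotation. The labels do not say whether replicates were separate cultures, so the p-values measure the spread between these libraries only.

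Cells recognise viral or misplaced nucleic acid through cytosolic sensors such as RIG-I (Ddx58) and MDA5 (Ifih1), and answer by secreting type I interferon. Interferon binds its receptor, JAK kinases activate STAT proteins, and the ISGF3 complex, which holds STAT2 and IRF9, binds the interferon-stimulated response element (ISRE) in the promoters of its target genes. The same genes are also expressed at a low basal level without infection. Type II interferon acts on a different element, GAS, and through IRF1 and NLRC5 raises the proteasome subunits, peptide transporter and class I molecules that display peptides on the cell surface.

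Each library held between 17.6 and 19.2 M reads assigned to genes, and 3 counts, the floor for a gene at 0, came to 0.156 to 0.171 counts per M counts (CPM) of the unscaled total. The deletion targets were checked first. Hdac5 had 2473, 2706 and 2421 counts in control cells at rest and 1503, 1461 and 1634 in DKO cells at rest (log2 fold change −0.65 ± 0.08 (SE), adjusted p = 7.94e-06), and Hdac4 stood at −0.85 on the log2 scale (adjusted p = 0.000102). Under FFSS Hdac4 was lower in DKO cells (−1.48, adjusted p = 5.65e-07) and Hdac5 was not (0.19, adjusted p = 0.0512), and reads of both genes were present in all DKO libraries. Control FFSS replicate 1 stood apart from its group. The share of uniquely aligned reads outside annotated genes was 5.87% in it, 9.19% and 10% in control FFSS replicates 2 and 3, and between 5.10% and 5.21% in control static libraries. In DKO cells it was between 7.07% and 7.14% in static and between 7.93% and 8.55% in FFSS libraries. Per degree of freedom, chi-square between the counts of control FFSS replicate 1 and those of the other two was 63.8 and 58, against 6.45 between replicates 2 and 3 and between 2.02 and 5.66 within the other groups. Where a paragraph on genes prints a member's FFSS fold change in control cells, it is therefore given with and without control FFSS replicate 1 (library 1 of that group). Counts of calls there are given both ways too.

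The promoters of the members were read from RefSeq (GRCm38.p6) as windows from 250 bases before to 50 after each annotated start. Windows were found for 30 of the 39 members (36 windows), and Dhx58, Zbp1, Usp18, Oas2, Mx1, Mx2, Parp9, Parp14 and Nlrc5 had none in the table. The ISRE core was searched as GAAANNGAAA on both strands. It was found in 13 of the 36 member windows (36.1%, 95% exact binomial interval 20.8% to 53.8%) and in 1131 of all 32851 windows of the same length (3.44%). The GAS letters TTCNNNGAA, which read the same on both strands, were found in 7 of 36 member windows (19.4%) and in 8.30% of all windows, and 1 of the 7 GAS matches in member windows overlapped an ISRE core. The members were collected for their known response to interferon, so these shares describe the list and are no test of it. The ISRE core stood in 5 of the 13 members with a window that were called lower in DKO static cells and in 8 of the 16 that were tested and not called there. Among members called higher under FFSS in control cells with all libraries it stood in 5 of 7 with a window, and in 8 of the 22 not called.

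The 200 bases before the start are given for 9 members on which the results turn, 5′ to 3′ on the strand of the gene, with each ISRE core (either strand) in capitals. The first 5 are Isg15, whose 3 overlapping cores form 1 run, and the 4 members with the ISRE core in this stretch that were called higher under FFSS in control cells. Bst2 and B2m carry the core and were called lower in DKO static cells, and Oasl1 (the largest rise under FFSS) and Tap1 (called lower in DKO static cells) hold no match to these letters in this stretch.
Isg15, chr4:156200819-156201018 (minus strand): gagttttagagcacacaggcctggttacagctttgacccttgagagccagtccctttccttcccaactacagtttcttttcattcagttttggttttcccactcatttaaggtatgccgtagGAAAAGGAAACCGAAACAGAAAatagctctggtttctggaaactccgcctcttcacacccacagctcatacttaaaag
Ifit1, chr19:34640689-34640888 (plus strand): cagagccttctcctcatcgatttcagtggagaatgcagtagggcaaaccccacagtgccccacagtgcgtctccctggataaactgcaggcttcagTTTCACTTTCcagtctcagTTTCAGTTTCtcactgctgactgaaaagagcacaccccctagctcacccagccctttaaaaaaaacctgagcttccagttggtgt
Rsad2, chr12:26456453-26456652 (minus strand): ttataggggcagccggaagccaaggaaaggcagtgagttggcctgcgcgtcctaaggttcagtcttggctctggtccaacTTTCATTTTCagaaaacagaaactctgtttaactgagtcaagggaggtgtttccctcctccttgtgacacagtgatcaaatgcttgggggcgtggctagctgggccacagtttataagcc
Gbp2, chr3:142620463-142620662 (plus strand): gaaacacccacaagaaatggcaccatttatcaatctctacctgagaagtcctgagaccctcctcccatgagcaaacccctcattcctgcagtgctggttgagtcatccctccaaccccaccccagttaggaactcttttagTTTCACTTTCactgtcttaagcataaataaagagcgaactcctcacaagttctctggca
Gbp3, chr3:142559844-142560043 (plus strand): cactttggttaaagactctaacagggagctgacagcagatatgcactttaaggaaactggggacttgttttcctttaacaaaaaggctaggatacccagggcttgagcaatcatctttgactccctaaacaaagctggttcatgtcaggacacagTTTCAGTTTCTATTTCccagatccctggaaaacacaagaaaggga
Bst2, chr8:71537473-71537672 (minus strand): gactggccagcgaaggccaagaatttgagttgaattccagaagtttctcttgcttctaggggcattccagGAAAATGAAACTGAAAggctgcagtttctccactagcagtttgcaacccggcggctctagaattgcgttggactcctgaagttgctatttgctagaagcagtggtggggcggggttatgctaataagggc
B2m, chr2:122147487-122147686 (plus strand): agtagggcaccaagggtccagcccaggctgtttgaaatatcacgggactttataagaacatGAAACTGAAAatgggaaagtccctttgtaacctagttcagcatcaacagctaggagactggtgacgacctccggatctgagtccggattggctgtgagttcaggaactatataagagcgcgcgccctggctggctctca
Oasl1, chr5:114923040-114923239 (plus strand): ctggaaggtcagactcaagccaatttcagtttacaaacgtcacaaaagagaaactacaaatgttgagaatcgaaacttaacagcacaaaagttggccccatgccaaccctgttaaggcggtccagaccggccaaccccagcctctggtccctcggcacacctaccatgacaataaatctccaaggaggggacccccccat
Tap1, chr17:34187356-34187555 (plus strand): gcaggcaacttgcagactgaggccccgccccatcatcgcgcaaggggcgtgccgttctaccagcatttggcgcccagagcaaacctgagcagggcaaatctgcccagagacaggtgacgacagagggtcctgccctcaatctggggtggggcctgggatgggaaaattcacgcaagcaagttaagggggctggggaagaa

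**Figure D1:**
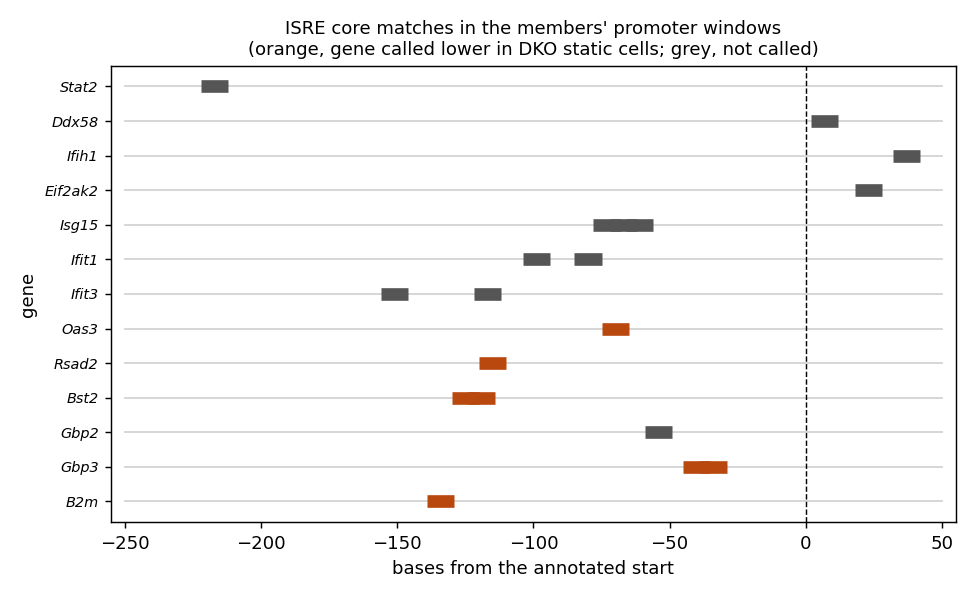
Distance in bases (horizontal axis) of each ISRE core match from the annotated start in the windows of the 13 members that hold one; a grey line spans the window and each block is 1 match of either strand. The dashed line is the start, and orange marks genes called lower in DKO static cells. Matches of 10 genes begin between positions −222 and −39, and those of Ddx58, Ifih1 and Eif2ak2 begin after the start.

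Most members were lower in DKO than in control cells, in static culture and under FFSS. Calls required an adjusted p (Benjamini-Hochberg over all genes tested) below 0.05 in edgeR's quasi-likelihood test together with a fold change above 2. In static cells 18 of the 37 members tested were called lower, against 7.30% of all genes tested, and 0 higher, against 7.98%. Without the fold limit 25 fell, against 27.2% of all genes, and 2 rose (Ifit2 and Lgals3bp), against 27.0%. All 3 DKO static libraries lay below all 3 control static libraries for 29 members, and for 34.1% of all genes. The median log2 fold change was −0.97 over the members and 0.01 over all genes tested. Under FFSS the comparison of DKO with control cells called 24 members lower, against 8.96% of all genes, and 0 higher, against 8.25%, and 33 fell without the fold limit, against 29.6%. The groups did not overlap for 33 members that were lower in DKO FFSS libraries, and for 30.0% of all genes, and the median was −1.66 against −0.05. Without control FFSS replicate 1 the count called lower under FFSS was 25, against 10.6% of all genes in that fit, and with replicate 1 as the only control FFSS library it was 19, against 6.56%.

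**Figure D2:**
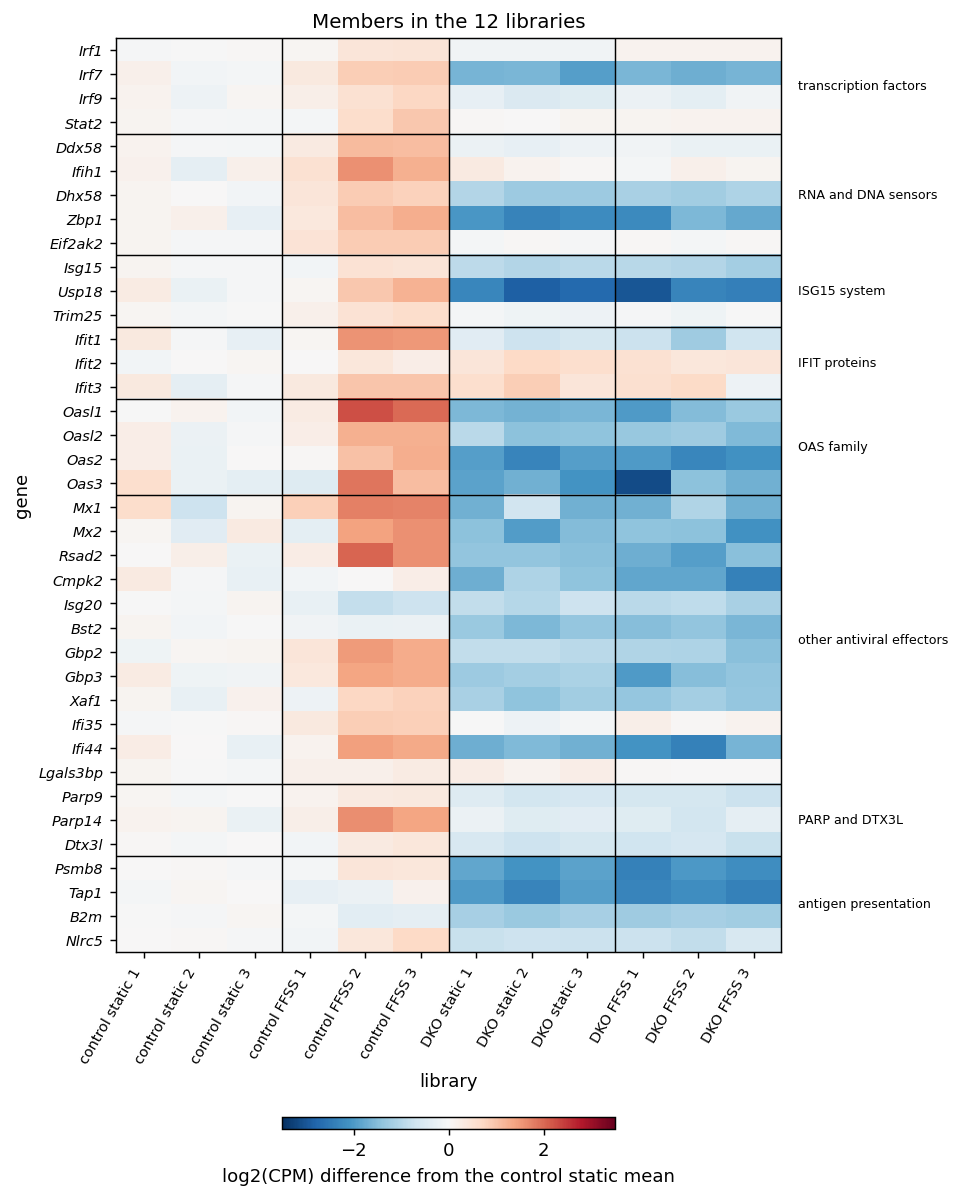
Each row is 1 of the 38 members with any count and each column 1 library; colour gives the difference in log2 CPM (prior count 2) from the mean of the 3 control static libraries, blue lower and red higher, and horizontal lines part the role groups. Control FFSS libraries 2 and 3 are red over most rows while control FFSS library 1 is close to static, and the 6 DKO libraries are blue for Irf7, Usp18, the OAS family and Psmb8, Tap1 and B2m.

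FFSS raised 25 of the 37 members tested in control cells, and 0 passed in DKO cells, where 0.376% of all genes rose and 0.497% fell. In control cells 9 of the 37 members were called higher (Oasl1, Rsad2, Parp14, Ifih1, Ifit1, Gbp2, Mx2, Gbp3 and Ifi44), against 3.96% of all genes tested, and 0 lower, against 1.97%. Without control FFSS replicate 2 the count called was 2, and without replicate 3 it was 5. Over all genes 559 and 497 were called in those fits, in either direction. A fit of only the 6 libraries compared called 3 members and 453 genes in all. The 25 that rose without the fold limit stand against 17.7% of all genes, and 2 fell (Isg20 and B2m), against 18.1%. The 3 FFSS libraries lay above the 3 static libraries for 18 members, and for 19.3% of all genes. The median log2 fold change was 0.71 over the members and 0.01 over all genes tested.

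The rise was larger in libraries 2 and 3 than in library 1. Taking each library against the control static mean, the median of the members was 0.13 in control FFSS library 1, 0.85 in library 2 and 0.88 in library 3 (log2 CPM). In library 1, 0 members lay more than 1 above the static mean, in library 2 there were 14 and in library 3 there were 15. Without replicate 1, 15 members were called higher, against 6.84% of all genes. In that fit 32 rose without the fold limit, against 26.8%, and 3 fell, against 28.4%. With replicate 1 as the only control FFSS library, 0 members were called at a median of 0.10, against 1.69% of all genes in either direction, and 6 rose without the fold limit, against 10.2% (this alternative was chosen after seeing the data, and the lone library is taken to vary like the other groups). Libraries 2 and 3 also had the highest shares of reads outside genes, and their summed osteocyte and osteoblast markers were the lowest of the 12 libraries (10204 CPM at the lowest, against up to 28566 in the group). Most of that sum was type I collagen, with Col1a1 at 5284 and Col1a2 at 4134 CPM in control FFSS library 2. With the share of reads outside genes as a covariate 0 members were called, and the median over the members was 0.00. Without the fold limit 1 member, Eif2ak2, still rose, against 6.86% of all genes. In the same fit 1 member, Tap1, fell (−0.38, adjusted p = 0.0482), against 8.51%. Within this group the replicate, that share and the marker sum cannot be told apart.

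In DKO cells 0 of the 37 members passed an adjusted p of 0.05 for FFSS, against 0.376% of all genes higher and 0.497% lower, and 3 members had an unadjusted p under 0.05. By edgeR, DESeq2 and limma-voom 0 members were called. The lowest adjusted p was 0.15, and the log2 fold changes ran from −0.64 (Cmpk2) to 0.39 (Zbp1). For 4 members the DKO FFSS libraries lay below all DKO static libraries, and for 15.9% of all genes. For 3 members (Irf1, Stat2 and Ifi35) they lay above them, and for 14.0% of all genes. The medians of the 3 DKO FFSS libraries against the DKO static mean were −0.06, −0.01 and −0.06. Over all genes 13 were called in DKO cells and 884 in control cells.

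**Figure D3:**
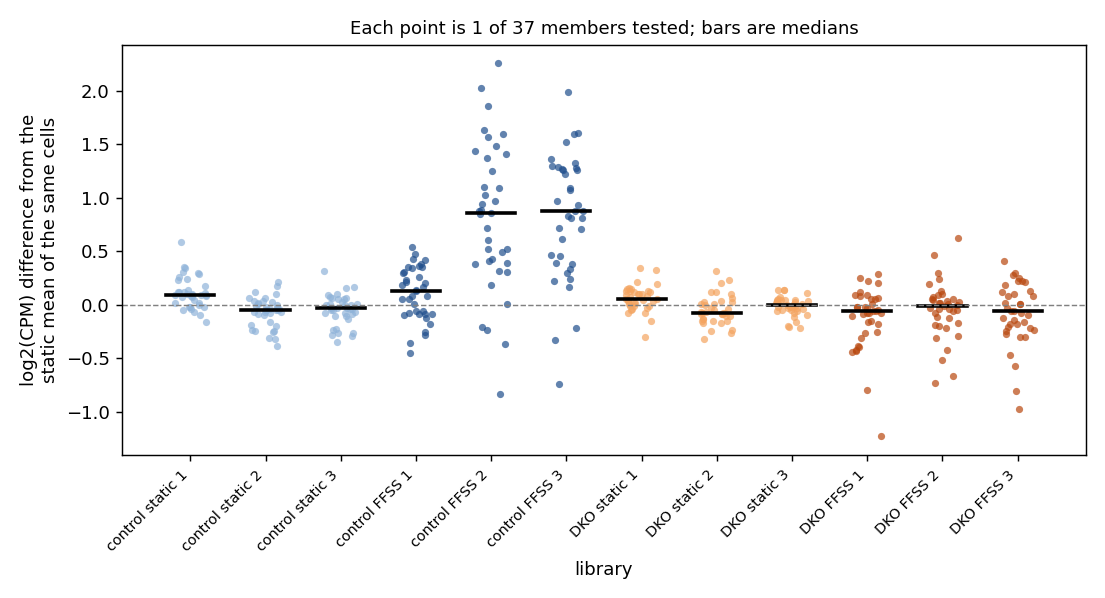
For each library (horizontal axis) the points are the 37 members tested, as the difference in log2 CPM (prior count 2) from the static mean of the same cells, and the bar is their median. Control FFSS libraries 2 and 3 have medians of 0.85 and 0.88, while control FFSS library 1 stands at 0.13 and the 3 DKO FFSS libraries lie just below 0.

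Of the 4 transcription factors, all rose under FFSS in control cells (17.7% of all genes did), also without replicate 1 (26.8%), and Irf7 and Irf9 were lower in DKO static cells (27.2% of all genes were). Irf7 (ENSMUSG00000025498, chr7:148448605-148452380), the interferon-induced factor that amplifies type I interferon production, read 23.2, 19.2 and 19.6 CPM at rest and 26.4, 37.3 and 37.9 after FFSS in control cells, against 6.65, 6.75 and 5.33 at rest and 6.75, 6.25 and 6.66 after FFSS in DKO cells. Every DKO library lay far below every control library, and each control library after FFSS lay above those at rest. The difference between lines passed in static cells (log2 fold change −1.73 ± 0.15 (SE), adjusted p = 3.11e-07), as did the rise in control cells (0.71 ± 0.13, adjusted p = 0.00134, and 0.86, adjusted p = 1.32e-09 without library 1), and the change in DKO cells was 0.07 ± 0.16, adjusted p = 0.921. Irf1 (ENSMUSG00000018899, chr11:53583516-53591876), an activator of class I and GAS-driven genes, read 71.4, 72.1 and 75.9 CPM at rest and 76.1, 98.2 and 101 after FFSS in control cells, against 66.7, 67.6 and 67 at rest and 79.7, 79.3 and 80.1 after FFSS in DKO cells. The highest were control FFSS libraries 2 and 3, and the DKO libraries after FFSS lay above those at rest by a smaller step. Irf1 rose in control cells (0.33 ± 0.08, adjusted p = 0.00935, and 0.44, adjusted p = 3.5e-08 without library 1), its change in DKO cells was 0.25 (adjusted p = 0.2) and its static difference between lines was −0.12 (adjusted p = 0.236).

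Irf9 (ENSMUSG00000002325, chr14:56222408-56228867) and Stat2 (ENSMUSG00000040033, chr10:127707629-127729905) encode the DNA-binding and transactivating parts of ISGF3. Irf9 read 37.4, 30.2 and 36 CPM at rest and 39.6, 49.4 and 56.8 after FFSS in control cells, against 28.4, 24 and 25.6 at rest and 29.9, 27.2 and 31.4 after FFSS in DKO cells. Its DKO libraries at rest lay below all control libraries. Irf9 was lower in DKO cells at rest (−0.41 ± 0.12, adjusted p = 0.0122) and after FFSS (−0.72 ± 0.12, adjusted p = 0.000182), on the log2 scale, and rose in control cells by 0.49 (adjusted p = 0.00716), and by 0.62 (adjusted p = 6.03e-07) without library 1. Stat2 read 44, 39.6 and 39.1 CPM at rest and 39.2, 62.4 and 78.3 after FFSS in control cells, against 41.7, 41.1 and 43.3 at rest and 43.6, 44.8 and 44.6 after FFSS in DKO cells. Control FFSS libraries 2 and 3 stood above the other 10 libraries, and the static levels of both lines overlapped (0.04, adjusted p = 0.882). The rise of Stat2 in control cells was 0.55 (adjusted p = 0.0393) with all libraries and 0.78, adjusted p = 7.42e-10 without replicate 1. Irf9 shares 123 exonic bases with Rnf31, and Irf7 shares 45 with Phrf1, whose reads unstranded counting leaves unassigned.

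All 5 sensors of foreign nucleic acid rose under FFSS in control cells, against 17.7% of all genes (and 26.8% without replicate 1, when all 5 rose too), and 2 of them, Dhx58 and Zbp1, were called lower in DKO static cells, against 7.30%. Ddx58 (ENSMUSG00000040296, chr4:40150806-40186861), which encodes RIG-I, read 40.3, 36.4 and 35.2 CPM at rest and 46, 80.0 and 79.3 after FFSS in control cells, against 32.4, 30.6 and 33.1 at rest and 34.1, 31.8 and 31.4 after FFSS in DKO cells. The high ones were control FFSS libraries 2 and 3, and library 1 also lay above the static range. Ddx58 rose in control cells (log2 fold change 0.88 ± 0.17 (SE), adjusted p = 0.00248, and 1.10, adjusted p = 3.53e-14 without library 1), and its change in DKO cells was 0.02 (adjusted p = 0.984). Ifih1 (ENSMUSG00000026896, chr2:62433850-62484312), which encodes MDA5, read 7.51, 5.47 and 7.63 CPM at rest and 9.92, 20.8 and 16.4 after FFSS in control cells, against 8.52, 7.46 and 7.05 at rest and 6.41, 7.73 and 7.27 after FFSS in DKO cells. The static lines overlapped, and the control FFSS libraries lay above all others. Ifih1 rose in control cells (1.19 ± 0.22, adjusted p = 0.00195, and 1.44, adjusted p = 1.73e-10 without library 1) and was lower in DKO than in control cells after FFSS (−1.14 ± 0.22, adjusted p = 0.000841), with a static difference of 0.16 ± 0.24, adjusted p = 0.598.

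Dhx58 (ENSMUSG00000017830, chr11:100556018-100565585) encodes LGP2, a relative of RIG-I that modulates its signalling. It read 9.25, 8.8 and 8.05 CPM at rest and 11.7, 16.1 and 15.3 after FFSS in control cells, against 4.18, 3.57 and 3.56 at rest and 3.93, 3.69 and 4.08 after FFSS in DKO cells. The lines did not overlap in either condition, and each control FFSS library exceeded those at rest. Dhx58 was lower in DKO static cells (log2 fold change −1.21 ± 0.14 (SE), adjusted p = 6.14e-06) and rose under FFSS in control cells by 0.72 (adjusted p = 0.000915), and by 0.85 (adjusted p = 6.95e-08) without library 1. Zbp1 (ENSMUSG00000027514, chr2:173032113-173044424), a sensor of Z-form nucleic acid, read 4.02, 4.22 and 3.05 CPM at rest and 4.88, 8.06 and 9.16 after FFSS in control cells, against 0.825, 0.659 and 0.722 at rest and 0.719, 1.19 and 1.01 after FFSS in DKO cells. All DKO libraries lay well below all control libraries (log2 fold change −2.35 ± 0.30 (SE), adjusted p = 1.23e-05 at rest), on 15, 12 and 13 reads in the DKO static libraries. Eif2ak2 encodes PKR, the kinase that halts translation on double-stranded RNA. Of the members tested it had the lowest adjusted p for the rise in control cells (log2 fold change 0.76 ± 0.10 (SE), adjusted p = 9.62e-05, and 0.88, adjusted p = 1.32e-12 without library 1), and its static difference between lines was −0.03 (adjusted p = 0.815).

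The ISG15 system tags proteins with the ubiquitin-like ISG15, and USP18 removes the tag and also blocks signalling at the interferon receptor. Isg15 (ENSMUSG00000035692, chr4:155573533-155574927) read 41.4, 37.6 and 37.6 CPM at rest and 36.5, 55.7 and 53.6 after FFSS in control cells, against 20.6, 18.9 and 20.2 at rest and 19.6, 19.1 and 16.8 after FFSS in DKO cells. The lines did not overlap, control FFSS library 1 lay below the static range and libraries 2 and 3 lay above it. The 1.95-fold lower level in DKO static cells fell just short of the fold limit (log2 fold change −0.97 ± 0.13 (SE), adjusted p = 3.08e-05). The change under FFSS in control cells did not pass with all libraries (0.32 ± 0.13, adjusted p = 0.0607) and did without library 1 (0.49, adjusted p = 7.57e-07). Usp18 (ENSMUSG00000030107, chr6:121195924-121220934) had the largest fold difference between the static lines among the members tested. It read 9.62, 6.62 and 7.63 CPM at rest and 8.32, 15.2 and 18.5 after FFSS in control cells, against 1.54, 0.988 and 1.11 at rest and 0.885, 1.49 and 1.4 after FFSS in DKO cells. Every DKO library lay below every control library, at rest (log2 fold change −2.71 ± 0.33 (SE), adjusted p = 2.03e-05) and after FFSS (−3.48 ± 0.32, adjusted p = 1.59e-06). Trim25, a ubiquitin ligase that acts on RIG-I, rose in control cells by 0.44 (adjusted p = 0.00319), and by 0.56 (adjusted p = 1.2e-08) without library 1, and its static difference between lines was −0.14 (adjusted p = 0.236).

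IFIT proteins bind viral RNA that lacks the cap modifications of host messages. Ifit1 (ENSMUSG00000034459, chr19:34715361-34724499) read 8.09, 6.15 and 5.16 CPM at rest and 6.73, 19 and 18.5 after FFSS in control cells, against 4.84, 3.79 and 4.11 at rest and 3.76, 2.62 and 3.86 after FFSS in DKO cells. Again control FFSS libraries 2 and 3 stood above the rest, and library 1 lay within the static range. Ifit1 rose in control cells (log2 fold change 1.19 ± 0.34 (SE), adjusted p = 0.0199, and 1.54, adjusted p = 1.17e-10 without library 1). Its DKO static libraries lay below the control ones, but the difference did not pass (−0.61 ± 0.38, adjusted p = 0.201). Ifit2 was higher in DKO static cells, at 23.1 ± 2.23 against 15.5 ± 0.886 CPM (SD, n = 3; log2 fold change 0.57 ± 0.11 (SE), adjusted p = 0.000349). Ifit3 was at 3.23 ± 0.512 against 2.09 ± 0.519 CPM (log2 fold change 0.63, adjusted p = 0.0579). Ifit3 is uncertain, because 51.5% of its 50-base windows also occur in I830012O16Rik, a near copy. For Ifit1 the shared portion was 7.13%.

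OAS enzymes make the short adenylate chains that switch on RNase L. All 4 members of the family were called lower in DKO cells at rest, against 7.30% of all genes, and after FFSS, against 8.96%. Oasl1 (ENSMUSG00000041827, chr5:115373249-115387924), a family member that represses Irf7 translation, read 6.18, 6.82 and 5.84 CPM at rest and 7.71, 30.4 and 25.2 after FFSS in control cells, against 2.03, 1.92 and 2.0 at rest and 1.49, 2.14 and 2.46 after FFSS in DKO cells. Control FFSS libraries 2 and 3 stood several times above every other library, and library 1 lay just above the static range. Oasl1 had the largest rise among the members tested in control cells (log2 fold change 1.75 ± 0.40 (SE), adjusted p = 0.0087, and without library 1 2.14, adjusted p = 2.85e-15). Between the lines it differed by −1.66 at rest (adjusted p = 0.0181) and by −3.38 after FFSS (adjusted p = 0.000143). Oas2 (ENSMUSG00000032690, chr5:121180342-121199862) read 7.35, 5.21 and 6.21 CPM at rest and 6.42, 12.7 and 15.2 after FFSS in control cells, against 1.54, 1.15 and 1.56 at rest and 1.49, 1.19 and 1.34 after FFSS in DKO cells. All DKO libraries lay far below all control libraries (log2 fold change −2.14 ± 0.32 (SE), adjusted p = 8.64e-05 at rest). Oas3 (ENSMUSG00000032661, chr5:121203107-121227670) rested on few reads, with 38, 21 and 19 counts at rest and 18, 103 and 58 after FFSS in control cells, against 5, 6 and 4 at rest and 1, 7 and 6 after FFSS in DKO cells. The highest DKO count was below every control count (log2 fold change −2.28 ± 0.74 (SE), adjusted p = 0.0209 at rest). Oasl2 was lower too, at 8.95 ± 1.87 against 21.4 ± 3.25 CPM (−1.26 ± 0.27, adjusted p = 0.00252).

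Of the 12 other antiviral effectors 11 were tested, 7 were called lower in DKO static cells (7.30% of all genes were) and 5 were called higher under FFSS in control cells (3.96% of all genes were), as were 5 without replicate 1 (6.84%). Rsad2 (ENSMUSG00000020641, chr12:27127618-27141317), which encodes viperin, read 1.9, 2.19 and 1.58 CPM at rest and 2.26, 7.96 and 5.89 after FFSS in control cells, against 0.66, 0.659 and 0.611 at rest and 0.498, 0.416 and 0.615 after FFSS in DKO cells. In control cells FFSS libraries 2 and 3 were several times above the static range, library 1 lay just above it, and every DKO library was below every control library. Rsad2 rose in control cells (log2 fold change 1.51 ± 0.35 (SE), adjusted p = 0.00589, and 1.87, adjusted p = 7.39e-10 without library 1) and was lower in DKO static cells (−1.55 ± 0.47, adjusted p = 0.0136). Gbp2 (ENSMUSG00000028270, chr3:142283566-142300972), an interferon-induced GTPase, read 5.39, 6.3 and 6.48 CPM at rest and 8.12, 17.1 and 15 after FFSS in control cells, against 3.24, 3.29 and 3.11 at rest and 2.88, 2.8 and 2.13 after FFSS in DKO cells. Its control FFSS libraries lay above and its DKO FFSS libraries below their groups at rest. The change in control cells was 1.15 (adjusted p = 0.00172, and 1.4, adjusted p = 4.74e-11 without library 1), and that in DKO cells was −0.31 (adjusted p = 0.724).

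Ifi44 (ENSMUSG00000028037, chr3:151393886-151412911), an induced protein with a GTP-binding motif, read 9.41, 7.87 and 6.53 CPM at rest and 8.63, 21.4 and 19.9 after FFSS in control cells, against 2.31, 2.63 and 2.39 at rest and 1.77, 1.43 and 2.46 after FFSS in DKO cells. The lines were apart at rest (−1.70 ± 0.34, adjusted p = 0.00131) and after FFSS (−3.13 ± 0.34, adjusted p = 1.14e-05, as log2 fold changes). In control cells Ifi44 rose under FFSS by 1.07 (adjusted p = 0.0141), and by 1.38 (adjusted p = 1.48e-10) without library 1. Bst2 (ENSMUSG00000046718, chr8:74058163-74061336) encodes tetherin, which holds budding virus at the cell surface. It read 149, 131 and 139 CPM at rest and 128, 118 and 119.9 after FFSS in control cells, against 56.9, 46.5 and 54 at rest and 49.4, 53.2 and 46 after FFSS in DKO cells. Control FFSS libraries lay just below the control static ones, and all DKO libraries far below both. Bst2 had the lowest adjusted p of the members tested for the static difference between lines (log2 fold change −1.41 ± 0.08 (SE), adjusted p = 5.54e-09), and the FFSS difference in control cells did not pass with all libraries (−0.19 ± 0.08, adjusted p = 0.0675) and did, lower, without library 1 (−0.23, adjusted p = 0.00508). Mx2, Gbp3, Xaf1 and Cmpk2 were also called lower in DKO static cells, with log2 fold changes from −1.82 (Mx2) to −1.23 (Gbp3).

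Mx1, a GTPase that blocks influenza virus, was too sparse to be tested, with 8, 2 and 5 counts at rest and 10, 22 and 21 after FFSS in control cells, against 0, 2 and 0 at rest and 0, 1 and 0 after FFSS in DKO cells. Its DKO libraries were at or under the floor of 3 counts, and its control FFSS counts lay above those at rest. Isg20, an RNA exonuclease, went the other way under FFSS in control cells, from 36 ± 2.03 to 23.9 ± 5.45 CPM (log2 fold change −0.59 ± 0.13 (SE), adjusted p = 0.00406, and −0.79, adjusted p = 7.47e-09 without library 1), and was lower in DKO static cells (−0.87 ± 0.13, adjusted p = 7.67e-05). Lgals3bp, a secreted glycoprotein, was higher in DKO static cells (0.21 ± 0.06, adjusted p = 0.0068), and Ifi35 stood at −0.08 there (adjusted p = 0.583). PARP9 and PARP14 are ADP-ribosyltransferase family members and DTX3L is the ubiquitin ligase that partners PARP9. Parp14 (ENSMUSG00000034422, chr16:35832960-35871630) read 7.61, 7.5 and 5.95 CPM at rest and 8.12, 21.9 and 18.2 after FFSS in control cells, against 5.99, 5.21 and 5.28 at rest and 5.2, 4.46 and 5.54 after FFSS in DKO cells. The static lines overlapped, and control FFSS libraries 2 and 3 stood apart from the rest (log2 fold change 1.20 ± 0.28 (SE), adjusted p = 0.00819, and 1.51, adjusted p = 8.64e-12 without library 1). Parp9 and Dtx3l share 458 exonic bases, and their log2 fold changes in DKO static cells were −0.56 and −0.64 (adjusted p = 5.14e-05 and 0.000312).

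**Figure D4:**
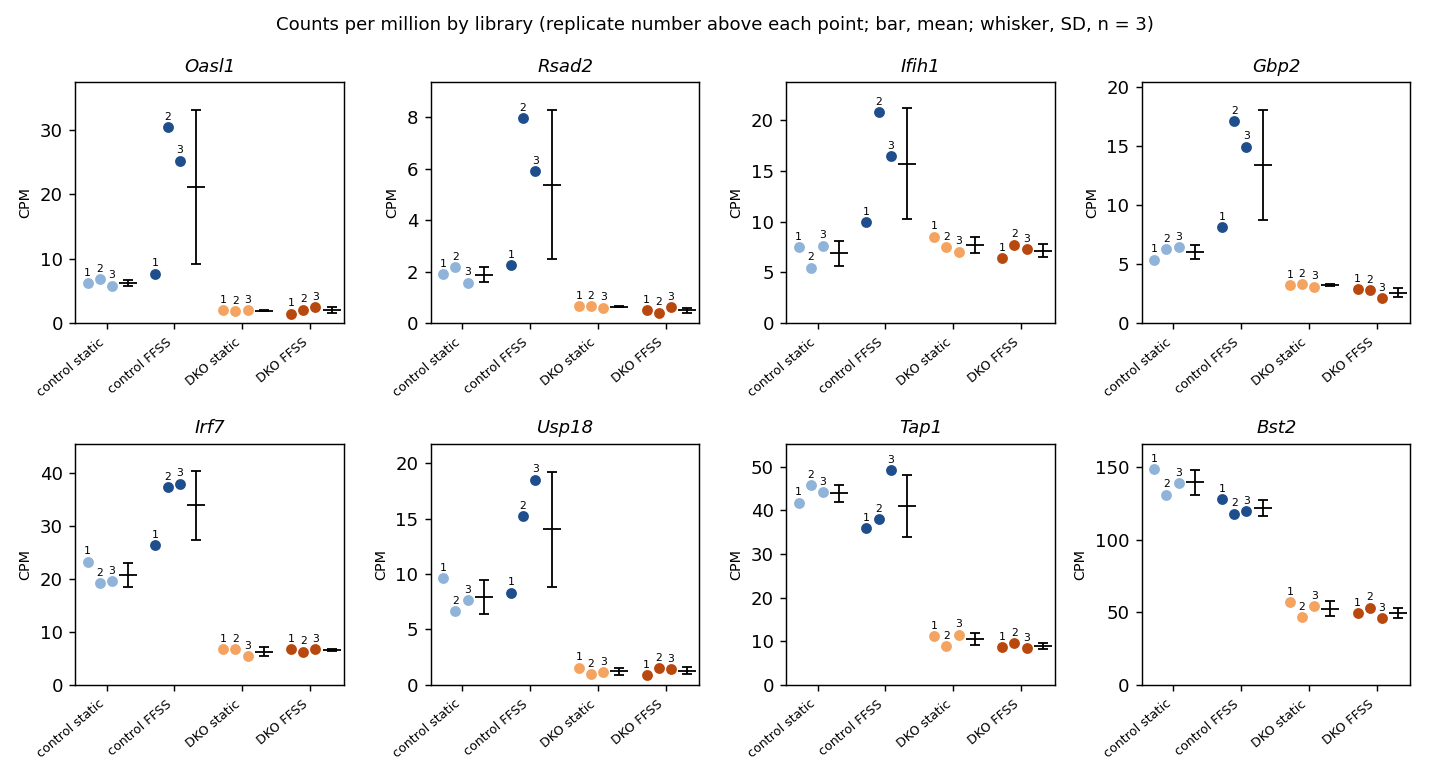
CPM (vertical axis, from 0) of 8 members in every library, with the replicate number above each point and the mean with its SD (n = 3) to the right of each group. The upper row shows genes whose control FFSS libraries 2 and 3 rise above library 1, and the lower row genes that are lower in all 6 DKO libraries than in all 6 control libraries.

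Of the 4 antigen presentation members tested, all were lower in DKO static cells (27.2% of all genes were), 3 of them by more than 2-fold (7.30%). Under FFSS in control cells 0 rose and 1 fell, against 17.7% and 18.1% of all genes, and without replicate 1, 2 rose and 1 fell, against 26.8% and 28.4%. Psmb8 (ENSMUSG00000024338, chr17:34334666-34338399), a catalytic subunit of the immunoproteasome, read 33.4, 34.1 and 32.6 CPM at rest and 32, 44.4 and 43.6 after FFSS in control cells, against 9.35, 7.79 and 9.0 at rest and 6.41, 8.21 and 7.33 after FFSS in DKO cells. The lines were apart in both conditions (log2 fold change −1.94 ± 0.13 (SE), adjusted p = 2.36e-08 at rest), and the FFSS difference in control cells did not pass with all libraries (0.26 ± 0.12, adjusted p = 0.0915) and did, higher, without library 1 (0.40, adjusted p = 4.38e-05). Tap1 (ENSMUSG00000037321, chr17:34324498-34334170), a subunit of the peptide transporter into the endoplasmic reticulum, read 41.8, 45.7 and 44.1 CPM at rest and 36, 38 and 49.1 after FFSS in control cells, against 11.1, 8.84 and 11.5 at rest and 8.68, 9.58 and 8.45 after FFSS in DKO cells. Control levels at rest and after FFSS overlapped (−0.10 ± 0.11, adjusted p = 0.535, and −0.01, adjusted p = 0.93 without library 1), and all DKO levels lay below them (log2 fold change −2.07 ± 0.12 (SE), adjusted p = 9.1e-09 at rest).

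B2m (ENSMUSG00000060802, chr2:121973422-121978819), the light chain of class I molecules, had the highest level per length of the list, at 2845 RPKM in control static and 1226 in DKO static cells (reads per kilobase of exon per M reads, group means). Bst2 followed at 183 and Isg15 at 51.4 RPKM in control static cells. B2m read 2411, 2377 and 2552 CPM at rest and 2326, 1899 and 1950.5 after FFSS in control cells, against 1086, 989.6 and 1088 at rest and 1041, 1089 and 1061 after FFSS in DKO cells. All DKO libraries lay below all control libraries, at rest (−1.21 ± 0.08, adjusted p = 1.55e-08) and after FFSS (−0.95 ± 0.08, adjusted p = 1.63e-07, as log2 fold changes), and in control cells B2m fell under FFSS (−0.25 ± 0.08, adjusted p = 0.0218, and −0.35, adjusted p = 8.22e-07 without library 1). Nlrc5 (ENSMUSG00000074151, chr8:96996663-97051172), the transactivator of class I genes, read 33.8, 34.3 and 32.3 CPM at rest and 31.6, 43.7 and 54.7 after FFSS in control cells, against 19.3, 20.2 and 19.9 at rest and 19.9, 18.3 and 22.6 after FFSS in DKO cells. It was lower in DKO static cells (−0.76 ± 0.16, adjusted p = 0.00112), and control FFSS libraries 2 and 3 lay above and library 1 below the static range (0.37 ± 0.15, adjusted p = 0.068, and without library 1 0.56, adjusted p = 1.59e-06). Psmb9, the immunoproteasome subunit gene next to Tap1, had 0 counts in all 12 libraries. It is annotated under 2 IDs (ENSMUSG00000024337 and ENSMUSG00000092299) that share 3647 exonic bases. Whether its reads were left unassigned for that overlap was not tested, and its level is unknown here.

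The interaction, the DKO response minus the control response, was called for 2 members, both lower (against 0.275% of all genes), and without the fold limit for 4, also lower (against 1.68%). These were Ifih1 (log2 fold change −1.30 ± 0.33 (SE), adjusted p = 0.0469), Gbp2 (−1.45 ± 0.35, adjusted p = 0.0386), Eif2ak2 (−0.73 ± 0.14, adjusted p = 0.0125) and Lgals3bp (−0.42 ± 0.08, adjusted p = 0.0161). The median interaction over the members was −0.64, and over all genes −0.02. Rsad2, Oasl1 and Gbp3 had larger interaction estimates, at −1.83, −1.72 and −1.51, that did not pass (adjusted p = 0.146, 0.186 and 0.055). Without control FFSS replicate 1 the interaction was called for 14 members, all lower, against 4.17% of all genes, and with replicate 1 as the only control FFSS library for 0. Leaving out any 1 of the other 11 libraries gave 0 calls, as did limma-voom and the share of reads outside genes as a covariate.

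**Figure D5:**
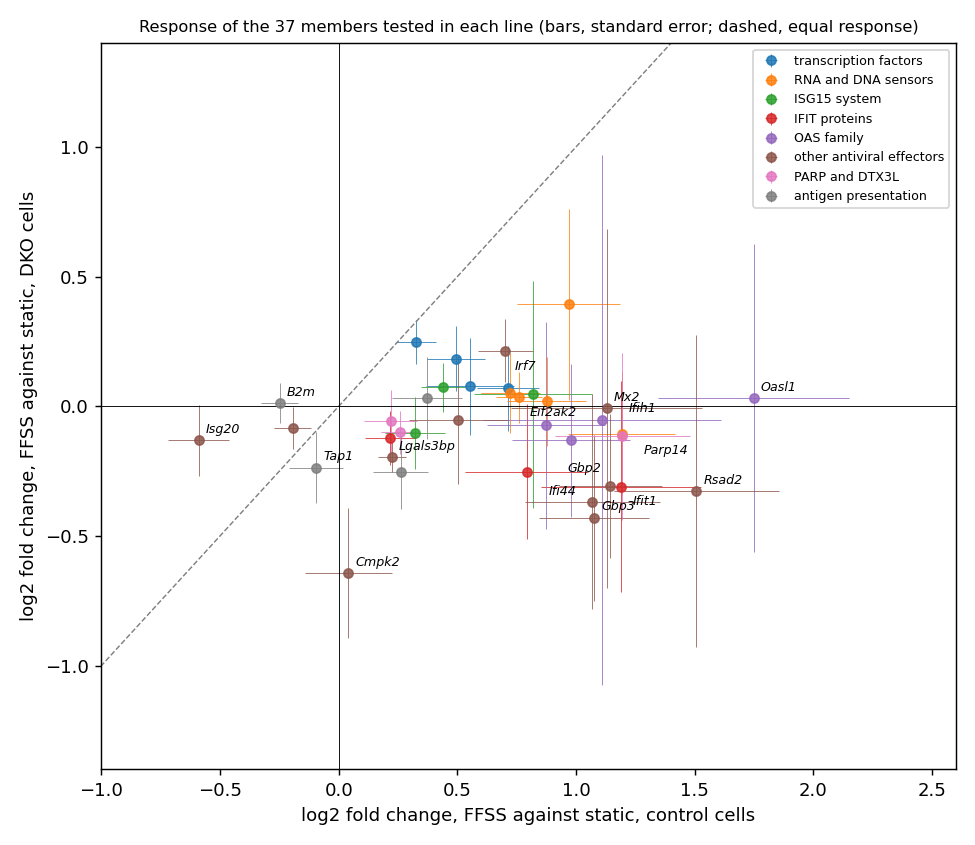
Log2 fold change of FFSS against static in control cells (horizontal axis) and in DKO cells (vertical axis) for the 37 members tested, coloured by role, with standard errors; on the dashed line both lines of cells respond alike. All but 3 members lie below the dashed line, and the vertical positions stay between −0.64 and 0.39.

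Upstream of the members, the interferon genes themselves were at or near 0. Of 15 interferon genes (type I, type II and lambda), 10 had 0 counts in all 12 libraries and none exceeded 3 counts in a library. Ifnb1 had 1 read in 1 control static library. A count of 0 allows up to 0.156 to 0.171 CPM at these depths, and several Ifna genes share much of their sequence, which lowers the reads assigned. Of 19 receptor, kinase and STAT genes tested, 6 were higher and 8 lower in DKO static cells at an adjusted p under 0.05, against 27.0% and 27.2% of all genes, and the called ones were the interferon regulatory factor Irf5 (1.41 ± 0.19, adjusted p = 5.6e-05, higher) and Ifngr2, a chain of the type II receptor (−1.08 ± 0.06, adjusted p = 2.71e-09, lower), against 7.98% and 7.30%. After FFSS, Il28ra, a chain of the lambda receptor, and Ifngr1, the other type II chain, were called higher in DKO than in control cells (1.72 and 1.07), 2 of 19 against 8.25% of all genes. Of 14 sensing adaptors and kinases, 7 were higher and 4 lower in DKO static cells, against the same shares of all genes, and Nlrx1 was the one called (1.03 ± 0.15, adjusted p = 3.95e-05, higher), against 7.98% of all genes called higher, a share near that of the list.

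A wider list of 52 other interferon-stimulated genes was read the same way, and 46 of them were tested. In DKO static cells 11 were called lower and 2 higher, against 7.30% and 7.98% of all genes, with a median of −0.38. Under FFSS the comparison of lines called 23 lower and 0 higher, against 8.96% and 8.25%. The largest were Iigp1 (−3.54), Oas1g (−3.21), Oas1a (−2.60) and Trim30a (−2.46) in static cells and Oas1a (−4.21), Oas1g (−4.17), Iigp1 (−3.82) and Sp100 (−3.41) under FFSS, as log2 fold changes. Oas1a and Oas1g share 53% and 50.6% of their 50-base windows with other genes and are uncertain, and Iigp1 held 2, 2 and 1 reads in DKO static libraries. Rnf213 (1.05) and Ifitm1 (1.13), chosen after their values were seen, were the 2 called higher. FFSS in control cells called 3 of the 46 higher (Oas1g 1.76, Oas1b 1.27 and BC006779 1.01), against 3.96% of all genes, and without the fold limit 24 rose and 0 fell, against 17.7% and 18.1%. Without replicate 1, 11 were called higher and 0 lower, against 6.84% and 4.45%, and 38 rose and 2 fell without the fold limit, against 26.8% and 28.4% (Oas1g 2.09, adjusted p = 5.73e-08, Oas1b 1.61, adjusted p = 2.38e-07 and BC006779 1.31, adjusted p = 2.76e-13). In DKO cells 0 passed in either direction, against 0.376% and 0.497% of all genes.

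In the class I pathway 15 genes were tested, of which 3 were called lower in DKO static cells, against 7.30% of all genes, and without the fold limit 9 fell and 2 rose, against 27.2% and 27.0%. The called ones were the class I heavy chains H2-K1 (129 ± 16.2 against 682 ± 6.91 CPM, SD, n = 3; −2.40 ± 0.09, adjusted p = 9.25e-11), H2-Q4 (−2.32 ± 0.09, adjusted p = 2.1e-10) and H2-D1 (−1.91 ± 0.08, adjusted p = 2.01e-10). Under FFSS Tap2, the partner of Tap1 in the transporter, joined them (−1.18 ± 0.09, adjusted p = 1.23e-07). FFSS in control cells called 0 of the 15, against 3.96% of all genes higher and 1.97% lower. Without the fold limit 2 rose and 1 fell, against 17.7% and 18.1%, and without replicate 1, 4 rose and 4 fell, against 26.8% and 28.4%. H2 genes are near copies of each other, with 7.29% of windows shared for H2-K1, 12.8% for H2-D1 and 21.4% for H2-Q4. Class II genes were at a low level. Of 7, 4 were tested and 3 called lower in DKO static cells, against 7.30% of all genes, namely Cd74, the invariant chain (−2.29 ± 0.15, adjusted p = 1.78e-08), H2-DMa (−1.10 ± 0.19, adjusted p = 0.000217) and H2-DMb1 (−1.08 ± 0.12, adjusted p = 4.98e-06), and H2-Aa, named after its values were seen, had 12, 14 and 5 counts in control cells at rest and 0 in all 6 DKO libraries. Under FFSS the comparison of lines called 1 of the 4 lower, against 8.96% of all genes. Without the fold limit 3 of the 4 fell there, against 29.6%.

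Markers of other cells were read beside these differences. Ptprc, the leukocyte common antigen, had at most 3 counts in a library and Emr1, which marks macrophages, at most 1, and the lymphoid and plasmacytoid dendritic list summed to at most 0.198 CPM in a library. Of the 10 macrophage and osteoclast markers 5 were tested, of which 3 were lower and 2 higher in DKO static cells, against 27.2% and 27.0% of all genes. They summed to between 103 and 109 CPM in control static and between 60.6 and 63.5 in DKO static libraries, most of it Ctsk and Cd68, which other cells also express. Cd68 read 25.5 ± 2.43 CPM in control and 2.32 ± 0.229 in DKO cells at rest (−3.46 ± 0.18, adjusted p = 1.88e-09). The 2 higher ones were Lyz2, a lysozyme (1.83 ± 0.29, adjusted p = 8.97e-05), and Csf1r, the macrophage growth factor receptor (1.17 ± 0.37, adjusted p = 0.0161), both from fewer than 50 reads in any library. The osteocyte label was checked too. Sost, which encodes sclerostin, had 28, 41 and 236 counts in control and 38134, 37343 and 36753 in DKO cells at rest, and Dmp1, a matrix protein of osteocytes, had 521, 444 and 714 and 10583, 10068 and 11027. Of 12 osteocyte and osteoblast markers tested 8 were called higher in DKO static cells, against 7.98% of all genes, and 1, Pdpn, lower (−2.47 ± 0.11, adjusted p = 8.57e-10), against 7.30%. Alpl, Runx2 and Sp7, markers of osteoblasts, did not pass at rest (adjusted p = 0.72, 0.118 and 0.25), and Alpl stood at 1633 ± 88.8 CPM in control cells. The summed osteocyte and osteoblast markers lay between 28117 and 34024 CPM in control static and between 92024 and 103660.0 CPM in DKO static libraries, most of it Col1a1 and Col1a2. Under FFSS in control cells, 1 of the 5 macrophage and osteoclast markers, Csf1r, was called higher, against 3.96% of all genes (1.43 ± 0.36, adjusted p = 0.00784, and 1.62, adjusted p = 0.000743 without library 1), on 8, 5 and 5 counts at rest and 12, 24 and 16 after FFSS, and 2 fell, against 18.1%, Cd68 and Ctsk (−0.50 and −0.37). The summed list lay between 71.1 and 102 CPM in control FFSS libraries. Of the osteocyte and osteoblast markers 2 were called lower there, Sp7 (−1.59 ± 0.38, adjusted p = 0.0129, and −2.33, adjusted p = 1.12e-21 without library 1) and Col1a1 (adjusted p = 0.0496), against 1.97% of all genes, and without library 1, 7 were, against 4.45%. Without the fold limit 3 of them fell and 1, Pdpn, rose (0.63, adjusted p = 0.00039), against 18.1% and 17.7%. Without library 1, 9 fell and Pdpn again rose (0.69, adjusted p = 5.14e-08), against 28.4% and 26.8%. The part of these markers and of cell state in the members' differences was not tested, and in these bulk libraries fewer expressing cells and less RNA per cell cannot be told apart.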

How the data were processed

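Total RNA from 12 Ocy454 samples was sequenced as single-end reads. The deposited counts are whole reads per Ensembl gene, which the authors made by alignment to mm9 with STAR and counting with HTSeq (the version of STAR is not given in the sources used here), without strand according to the file naming. Reads outside genes (5.10% to 10% of uniquely aligned reads), reads ambiguous between genes (2.70% to 2.95%) and multiply aligned reads (14.1% to 16.6% of all reads) were left out of the totals and tests.

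Members were matched by symbol. The members and all gene lists were chosen with earlier results of these data known. A gene was tested when at most 1 of the 12 libraries had 0 counts for it. edgeR 4.0.16 (R 4.3.3) fitted 4 groups with TMM scaling and a robust quasi-likelihood, p-values were adjusted by Benjamini-Hochberg over the 14904 genes tested, and calls needed an adjusted p below 0.05 and a fold change above 2. CPM used TMM-scaled library sizes, and plotted log2 values a prior count of 2. RPKM was computed here from exonic length. Values in every library are given for up to 6 called members per contrast (5 contrasts, by size of fold change), for 4 transcription factors, for 3 RNA sensors and for the best-known members of each role group; other genes are given by counts, ranges or group means. Alternatives were RLE scaling, library totals alone, other filters, DESeq2 1.42.0, limma 3.58.1 (voom), no fold limit, a replicate block, the share of reads outside genes as a covariate, fits of the 6 libraries compared, and leaving out each library. Depth was 17.6 to 19.2 M counts per library, and intervals and floors cover counting error only.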

Additional observations from a re-analysis of the deposited data

Results flagged for a closer look

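The response to FFSS differed between the lines for 4 members by the interaction term of edgeR's quasi-likelihood fit (DKO response minus control response, log2, adjusted over all genes tested). The difference was −1.3 for Ifih1, −1.45 for Gbp2, −0.725 for Eif2ak2 and −0.42 for Lgals3bp. In each of these genes control cells rose and the DKO change did not pass the test. Eif2ak2 was the one that passed in every alternative run.

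Reads outside annotated genes, which entered no comparison of genes, took a larger share of uniquely aligned reads than in any control static library (5.10% to 5.21%) in the other 9 libraries. The share was 7.12%, 7.07% and 7.14% in DKO static libraries 1 to 3, 5.87%, 9.19% and 10% in control FFSS libraries 1 to 3, and 7.93%, 8.09% and 8.55% in DKO FFSS libraries 1 to 3. Control FFSS libraries 2 and 3, which had the 2 highest shares, were also those in which the members stood highest. The part of this share in the results was not tested beyond the covariate fit.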

How the results depend on the processing

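The lower levels of members in DKO cells held most widely. In static cells the count called was 17 to 18 with any 1 library left out (2127 to 2412 over all genes, in either direction). There, 20 of the 25 members lower at the adjusted p kept their side of it in every alternative. Under FFSS the count was 22 to 25 (2289 to 2994 over all genes), with 30 of 33 lower members kept. The static median of the members (−0.97) moved to −1.05 with library totals alone, −1.08 with genes of any count and −1.34 with the share of reads outside genes as a covariate. The FFSS median (−1.66) ranged from −1.98 (without control FFSS replicate 1) to −1.38 with 1 library left out and was −1.11 with control FFSS replicate 1 as the only control FFSS library, an alternative added after seeing the data. Library totals alone shifted the median of all genes to 0.13 for FFSS in control cells, −0.13 in the interaction and −0.25 in the comparison of lines under FFSS.

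The response to FFSS in control cells depended on the libraries. Of 27 members past the adjusted p, 1 (Eif2ak2) kept it in every alternative. The 9 calls (884 over all genes, in either direction) became 27 with no fold limit (5338 over all genes) and 3 in a fit of only the 6 libraries compared (453). With 1 library left out they were 2 to 15, with 2 without control FFSS replicate 2 (559 over all genes) and 15 without replicate 1 (1683). With the covariate they were 0 (198 over all genes), at a median of 0.00126. With replicate 1 alone the median was 0.10. Of the 27, the sign turned with the covariate for Irf1 (−0.002066), Stat2 (−0.24), Usp18 (−0.14), Ifit1 (−0.14), Oas2 (−0.17), Mx2 (−0.65) and Ifi44 (−0.057). With replicate 1 alone it turned for Stat2 (−0.081) and Mx2 (−0.42). Among members not past the adjusted p, it turned under both alternatives for Isg15, Oas3, Cmpk2, Xaf1, Dtx3l, Psmb8 and Nlrc5. With replicate 1 alone it also turned for Ifit2. In DKO cells the count with the fold limit stayed 0 and the median was −0.25 with the covariate. Without the fold limit 4 members fell and 0 rose in DKO cells with the covariate, against 4.93% and 5.02% of all genes. Without control FFSS replicate 1, 1 rose and 1 fell in DKO cells, against 4.86% and 5.66%. The 2 interaction calls (97 over all genes) became 8 with DESeq2 (175 over all genes), 4 with no fold limit (591), 1 with any count (94) and 0 with limma-voom (169). With 1 library left out they were 14 without control FFSS replicate 1 (1133 over all genes) and 0 in the other 11 fits (41 to 59). With the covariate they were 0 (67 over all genes), at a median of −0.23. With replicate 1 alone the median was −0.11. The cause of these changes was not tested.

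Replicate numbers did not pair the libraries (mean correlation of deviations 0.00226 for the same number, −0.00116 for different numbers). With a replicate block the counts called were 8 for FFSS in control cells, 0 in DKO cells, 1 for the interaction, 18 for DKO against control at rest and 24 under FFSS. Over all genes they were 882, 14, 84, 2271 and 2545, in either direction. In only the 200 bases before the start, the ISRE core stood in 25% of member windows and 2.27% of all windows. Genes near the floor (Mx1, Oas3, interferons) were limited by depth.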
